A study of Mus musculus with 4 samples.

Results

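Among the genes known to mark the leading cells of a vessel sprout, Esm1, Apln and Kcne3 were higher in endothelial cells sorted from Zeb1-CKO retinas than in those from control retinas, while 5 others did not pass the test. The genes described are 8 chosen by symbol as markers of sprouting tip cells, Esm1, Apln, Aplnr, Kcne3, Trp53i11, Cotl1, Plaur and Pdgfb, and each matched exactly 1 of the 54446 genes in the deposited table. The study compared RNA from retinal endothelial cells of C57BL/6 mice at postnatal day 16, in 2 libraries labelled Zeb1-CKO and 2 labelled control, each made from 100 cells isolated by flow cytometry. The titles call Zeb1, a zinc-finger transcriptional repressor, conditionally knocked out, and the genotype field calls it knocked down; the Cre line, the allele and the genotype of the controls beyond that word are not given in the labels. Values are FPKM, fragments per kilobase of transcript and scaled to the library total, so levels of different genes can be compared.

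A new vessel is led by a tip cell, which extends filopodia toward vascular endothelial growth factor (VEGF), while Notch signalling keeps the following stalk cells from doing the same. Tip cells of the mouse retina are known to be rich in endocan, the secreted proteoglycan encoded by Esm1, in the peptide apelin encoded by Apln, and in platelet-derived growth factor B, which draws pericytes to the sprout. In the first weeks after birth the mouse retina grows its deeper vessel layers from the superficial one, so sprouting cells are normally present in it.

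The stretches just before the transcription starts of the 3 genes that were higher are shown so that their base composition can be set side by side. They are the 250 bases before a RefSeq start in GRCm38.p6 (mm10), on the strand of the gene, at chr13:113209409-113209658 (plus strand) for Esm1, chrX:48034854-48035103 (minus strand) for Apln and chr7:100178433-100178682 (plus strand) for Kcne3. Capitals mark matches on either strand to 4 short motifs, CAGGTG (the E-box type that ZEB1 is known to bind), ACGTG and GCGTG (the core that hypoxia-inducible factors are known to bind) and TATAAA.
Esm1: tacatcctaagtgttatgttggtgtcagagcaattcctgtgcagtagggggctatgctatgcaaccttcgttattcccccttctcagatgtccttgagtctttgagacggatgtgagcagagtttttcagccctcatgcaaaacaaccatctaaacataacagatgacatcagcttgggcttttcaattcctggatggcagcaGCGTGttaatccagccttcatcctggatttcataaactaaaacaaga
Apln: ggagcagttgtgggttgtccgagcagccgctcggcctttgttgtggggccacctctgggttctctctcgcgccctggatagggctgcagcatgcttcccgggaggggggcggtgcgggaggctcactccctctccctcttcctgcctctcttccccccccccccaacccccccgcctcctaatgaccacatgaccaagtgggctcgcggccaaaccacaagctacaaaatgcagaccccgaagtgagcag
Kcne3: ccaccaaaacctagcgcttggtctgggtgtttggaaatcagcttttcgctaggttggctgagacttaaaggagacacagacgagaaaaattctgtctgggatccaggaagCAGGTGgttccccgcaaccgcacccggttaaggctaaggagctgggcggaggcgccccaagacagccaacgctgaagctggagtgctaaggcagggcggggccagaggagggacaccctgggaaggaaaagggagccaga
The Kcne3 window holds a CAGGTG that begins 140 bases before the start, a motif found in 17.2% of all 32851 RefSeq promoter windows of this length. The Esm1 window holds a GCGTG that begins 47 bases before the start, as 28.2% of all windows hold at least 1, and the Apln window holds none of the 4 motifs. ACGTG was found in 16.6% and TATAAA in 12.4% of all windows. A match is a string of letters and not a measured binding site. GC content was 44.0% with 3 CpG in the Esm1 window, 65.2% with 12 CpG in that of Apln and 58.0% with 10 CpG in that of Kcne3, against a median of 52.4% over all windows. Kcne3 has a further window at an earlier start, with 46.8% GC, 3 CpG and 1 ACGTG; it is not shown because 75 of its bases are annotated as exon. The windows of Kcne3 thus lie on either side of that median. RefSeq windows were found for 5 of the 8 genes, and that of Trp53i11 held 1 GCGTG at 71.2% GC with 22 CpG, and that of Plaur held none at 59.6% GC.

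Depth, read from the steps between low FPKM values, was about 21.9 and 16.7 M fragments in Zeb1-CKO libraries 1 and 2, against 20.5 and 11.2 M in control libraries 1 and 2. At these depths Kcne3, the member with the fewest fragments, rested on about 117 in control 2, and Aplnr on about 20474 in control 1. Endothelial markers were high in every library: their sum over 9 genes was 4200.1 and 4579 FPKM in Zeb1-CKO and 3694 and 4443 FPKM in control, and none of the 9 passed limma's test (1 at an unadjusted p under 0.05). Most of that sum was Cldn5, at 3133 and 3500.4 FPKM in Zeb1-CKO and 2692 and 3428 FPKM in control. The targeted gene, Zeb1, was at 8.66 and 7.07 FPKM in Zeb1-CKO and at 10.7 and 11.1 FPKM in control. Its limma adjusted p was 0.235, and summing over the whole gene hides any deleted exon, so the labels are only weakly checked. Its paralog Zeb2 was at 3.40 and 2.76 FPKM in Zeb1-CKO and at 3.22 and 4.29 FPKM in control (limma adjusted p = 0.615). Markers of other cell types were also present, as the plot of marker lists shows, with pericyte markers at 1443 and 1516 FPKM in Zeb1-CKO and 1999.8 and 1658 FPKM in control. Most of the pericyte sum was Rgs5, at 1201 and 1262 FPKM in Zeb1-CKO and 1673 and 1348 FPKM in control. Of 5 fitted glial, 5 photoreceptor and 5 blood markers, 0 passed limma's threshold, with 2, 0 and 4 at an unadjusted p under 0.05, against 17.9% of all fitted genes. A pair of genes known from epithelial cells, picked after their values were seen and not from a list, also rose. Epcam was at 58.5 and 57.1 FPKM in Zeb1-CKO, against 0.0477 and 0 FPKM in control (limma adjusted p = 0.00032). Cdh1, which encodes E-cadherin, was at 22.4 and 22.3 FPKM in Zeb1-CKO, against 0.156 and 0.0217 FPKM in control (limma adjusted p = 0.000603). Whether epithelial cells among those sorted, or endothelial cells expressing these genes, gave these values cannot be told apart here, and their part in the values that follow was not tested.

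**Figure D1:**
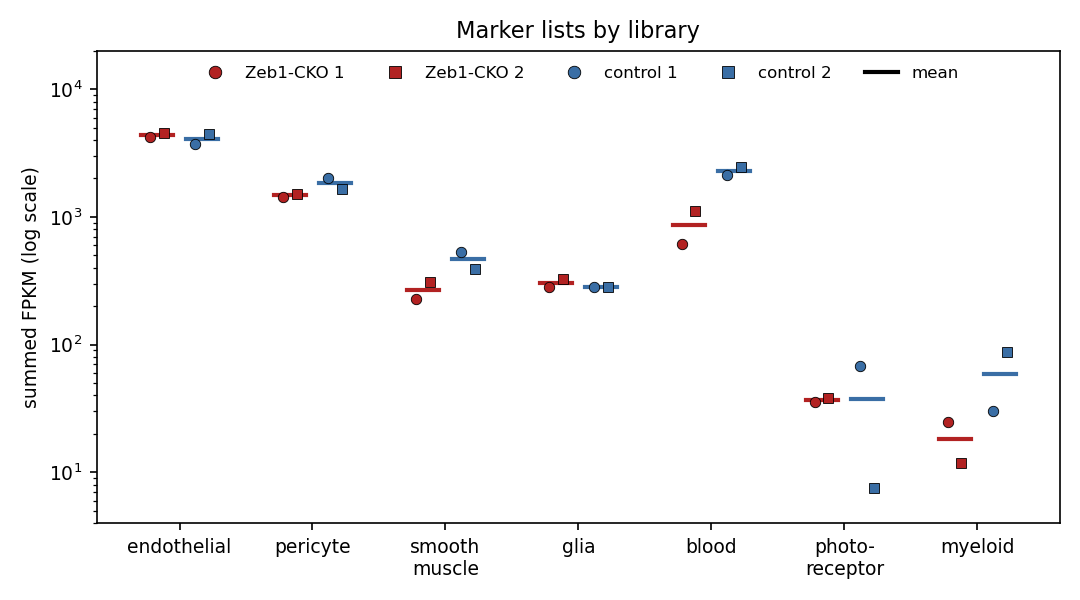
Summed FPKM of marker genes per library on a log axis, for endothelial cells and 6 other cell types, with Zeb1-CKO left of control; points are libraries and bars are means. Endothelial sums lie between 3694 and 4579 FPKM in all libraries, while the photoreceptor sum is 67.8 FPKM in control 1 and 7.59 FPKM in control 2, the myeloid sum is highest in control 2 at 87.4 FPKM, and the blood sum is 619 and 1105 FPKM in Zeb1-CKO against 2127 and 2452 FPKM in control.

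Esm1 showed the highest fold change of the 8 genes. It lies on chromosome 13, 113209659 to 113218098 (mm10, plus strand), and is annotated with 1 transcript of 2097 bases. It was measured at 91.0 and 66.2 FPKM in Zeb1-CKO libraries 1 and 2, against 9.62 and 12.8 FPKM in control libraries 1 and 2. Both Zeb1-CKO libraries were far above both controls, the lower of them at 5.18 times the higher control. The means were 78.6 ± 17.5 FPKM in Zeb1-CKO and 11.2 ± 2.23 FPKM in control (SD, n = 2 each), a ratio of 7.02. On the log2(FPKM + 1) scale, which understates changes of low genes, limma gave a difference of 2.70 (SE 0.21, 95% interval 2.17 to 3.23) with a Benjamini-Hochberg adjusted p of 0.00426. Only 44 of the 13651 fitted genes had a larger positive difference. In mean level, Esm1 stood above 96.1% of fitted genes in Zeb1-CKO cells and above 71.1% in control cells. In these sorted pools, a larger share of Esm1-expressing cells and more Esm1 RNA per cell cannot be told apart, and the same holds for the genes that follow.

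Apln, the ligand, rose, while Aplnr, the G-protein-coupled receptor that apelin activates, did not pass. Apln lies on chromosome X, 48025146 to 48034853 (minus strand), with 1 annotated transcript. It was at 189 and 171 FPKM in Zeb1-CKO libraries 1 and 2, against 48.0 and 53.2 FPKM in control libraries 1 and 2. The libraries of each genotype lay close together, within 1.10-fold in Zeb1-CKO and 1.11-fold in control, and the groups did not overlap. The means were 179.6 ± 12.7 FPKM in Zeb1-CKO and 50.6 ± 3.66 FPKM in control (SD, n = 2 each), a ratio of 3.55, and limma gave a log2 difference of 1.81 (SE 0.14, 95% interval 1.47 to 2.15, adjusted p = 0.00376).

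Aplnr, on chromosome 2 from 85136225 to 85139923 (plus strand), was the most abundant of the 8 genes in both genotypes. It was at 251 and 252 FPKM in Zeb1-CKO, against 270.0 and 280.2 FPKM in control. Both Zeb1-CKO libraries were slightly below both controls. The log2 difference was -0.13 (SE 0.13), with a 95% interval of -0.44 to 0.18 and a limma adjusted p of 0.65. Apln thus stood at 75.1% and 67.8% of the FPKM of its receptor gene in Zeb1-CKO libraries 1 and 2, against 17.8% and 19.0% in control libraries 1 and 2. Apela, which encodes the other known ligand of the receptor, was listed at 0 in both Zeb1-CKO libraries and in control 1, and at 0.165 FPKM in control 2.

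Kcne3, which encodes a single-pass accessory subunit of voltage-gated potassium channels, was the third gene to rise. It lies on chromosome 7, 100176502 to 100184869 (plus strand), and has 8 annotated transcripts. It was at 31.2 and 41.5 FPKM in Zeb1-CKO libraries 1 and 2, against 12.1 and 7.89 FPKM in control libraries 1 and 2. The groups did not overlap, but the controls differed from each other by 1.54-fold, the widest spread among the 8 genes. The ratio of the means was 3.63, with an SD of 7.31 FPKM in Zeb1-CKO and 3.01 FPKM in control (n = 2 each). Limma gave a log2 difference of 1.78 (SE 0.24, 95% interval 1.18 to 2.37) with an adjusted p of 0.0237. This call was the least firm of the 3: its adjusted p was 0.0943 without Zeb1-CKO replicate 1, 0.130 without Zeb1-CKO replicate 2 and 0.0612 with the replicate number as a block. The antisense gene Gm34821 shares 9 of the 1779 exon bases of Kcne3 and was at 0.204 and 0.178 FPKM in Zeb1-CKO, and at 0.0569 and 0 FPKM in control.

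**Figure D2:**
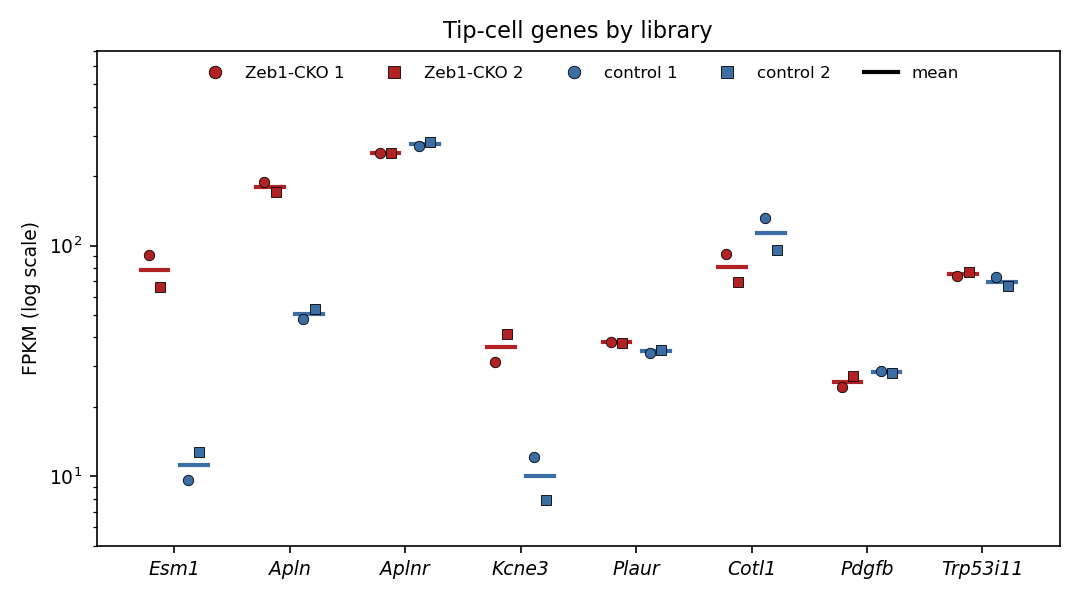
FPKM of the 8 genes in each library on a log axis, with Zeb1-CKO left of control for each gene; points are libraries and bars are means of 2. Esm1, Apln and Kcne3 stand 2.57 to 5.18 times apart at the nearest libraries of the 2 genotypes, while Aplnr, Plaur, Cotl1, Pdgfb and Trp53i11 come within 1.02 to 1.08 times.

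In all, 3 of the 8 genes rose and 0 fell by limma with adjusted p under 0.05. Over all 13651 fitted genes, 2.23% rose and 0.901% fell under the same rule, 3.13% in all. The 8 genes were chosen with earlier results of these data known, so the gap between these shares tests nothing. At an unadjusted p under 0.05 the counts for the 8 genes were also 3 and 0, against 1434 higher and 1004 lower of the 13651 fitted genes, 17.9% in all. The 2 genotypes did not overlap for all 8 genes, 5 higher and 3 lower in Zeb1-CKO, against 49.4% of all fitted genes; for 5 of the 8, the gap between the nearest libraries was within 1.08-fold. The median log2 difference over the 8 genes was 0.12, against 0.02 over all fitted genes.

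The other members differed little between genotypes or varied within one. Plaur, on chromosome 7 (24462484 to 24475968), encodes the urokinase receptor, which focuses plasminogen activation at the cell surface. It was at 38.2 and 38.0 FPKM in Zeb1-CKO, against 34.3 and 35.3 FPKM in control. The log2 difference was 0.13 (SE 0.12, 95% interval -0.18 to 0.44, limma adjusted p = 0.647). These replicates agreed closely, and the interval leaves room for a ratio of 0.884 to 1.35.

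Trp53i11, on chromosome 2 (93187548 to 93201759), encodes a membrane protein known as p53-inducible. It was at 74.2 and 76.8 FPKM in Zeb1-CKO, against 72.8 and 67.0 FPKM in control, a log2 difference of 0.11 (SE 0.13, 95% interval -0.21 to 0.43, limma adjusted p = 0.71). The nearest libraries of the 2 genotypes were 1.02-fold apart.

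Pdgfb, on chromosome 15 (79995874 to 80014977), encodes the chain of the growth factor that pericytes sense through their receptor PDGFRB. It was at 24.4 and 27.1 FPKM in Zeb1-CKO, against 28.5 and 28.0 FPKM in control. The log2 difference was -0.13 (SE 0.13, 95% interval -0.46 to 0.20, limma adjusted p = 0.668). Pdgfb is also known from platelets. The platelet gene Pf4 was at 11.5 and 6.74 FPKM in Zeb1-CKO and at 3.03 and 1.84 FPKM in control. In the blood list of 5 fitted genes, 3 had positive log2 differences, the platelet genes Pf4, Itga2b and Ppbp at 1.54, 1.06 and 0.85. The other 2, the globin genes Hbb-bs and Hba-a1, had negative ones, of -1.35 and -1.62. Of the 5, 0 passed limma's threshold. The summed blood list was at 619 and 1105 FPKM in Zeb1-CKO and 2127 and 2452 FPKM in control, mostly from the globins, and its part in the Pdgfb values was not tested.

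Cotl1, on chromosome 8 (119809222 to 119840544), encodes coactosin-like protein, which binds filamentous actin. It had the largest negative difference of the 8 genes, at 91.8 and 69.9 FPKM in Zeb1-CKO, against 132 and 96.0 FPKM in control. Libraries of the same genotype differed by 1.31-fold in Zeb1-CKO and 1.37-fold in control, more than the 1.05-fold gap between the nearest libraries of the genotypes. The log2 difference of -0.48 (SE 0.21, 95% interval -1.01 to 0.05) had a limma adjusted p of 0.316. Without each library in turn the difference ranged from -0.71 to -0.26. Cotl1 and Plaur are also known from myeloid cells. Of 11 myeloid markers 8 could be fitted, and all 8 had negative differences and 0 passed limma's threshold (5 at an unadjusted p under 0.05, against 17.9% of all fitted genes). The sum of the list was 25.0 and 11.8 FPKM in Zeb1-CKO, against 30.0 and 87.4 FPKM in control, and Aif1 was listed at 0 in Zeb1-CKO library 1. The part of myeloid RNA in the values of Cotl1 and Plaur was not tested.

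**Figure D3:**
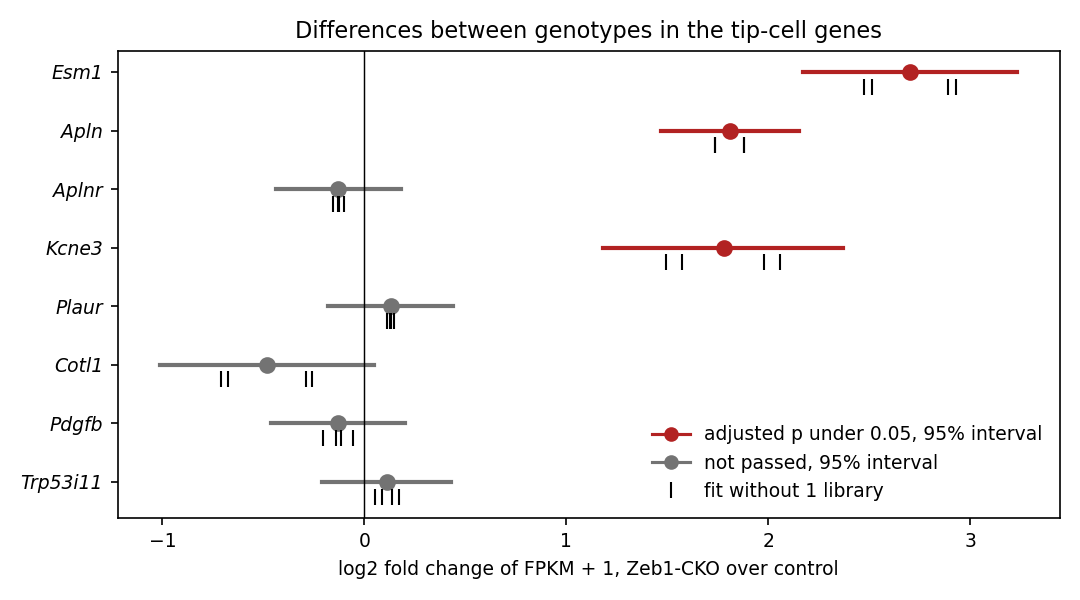
Difference between Zeb1-CKO and control on the log2(FPKM + 1) scale for each of the 8 genes, with its 95% interval from limma; short vertical ticks are the fits that leave out 1 library each. The intervals of Esm1, Apln and Kcne3 lie wholly above 0, at differences of 2.70, 1.81 and 1.78, and the other 5 intervals include 0.

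The order of levels among the 8 genes differed between genotypes. In Zeb1-CKO cells it ran from Aplnr through Apln, Cotl1, Esm1, Trp53i11, Plaur and Kcne3 to Pdgfb by mean FPKM. The libraries of Cotl1 and Esm1, of Esm1 and Trp53i11, and of Plaur and Kcne3 overlapped there, so these neighbours did not differ beyond their spread. In control cells it ran from Aplnr through Cotl1, Trp53i11, Apln, Plaur, Pdgfb and Esm1 to Kcne3, where the neighbours whose libraries overlapped were Esm1 and Kcne3. Esm1 ranked 4 of 8 in Zeb1-CKO and 7 of 8 in control, and Apln ranked 2 and 4. The 8 genes summed to 790.3 and 742 FPKM in Zeb1-CKO, against 607 and 580.2 FPKM in control.

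Of a list of 23 other genes associated with tip cells, all fitted, 1 rose, 1 fell and 21 did not pass. Of all fitted genes, 3.13% passed limma's threshold. In the list, 16 had a positive and 7 a negative difference, where 52.8% of all fitted genes had a positive one. The 2 genotypes did not overlap for 14 higher and 4 lower genes of the list, against 49.4% of all fitted genes in either direction. The median log2 difference was 0.23, against 0.02 over all fitted genes. This list too was chosen with earlier results of these data known, so these shares are descriptive only. At an unadjusted p under 0.05, 9 were higher and 2 lower, against 17.9% of all fitted genes in either direction. Igfbp3, which encodes a binding protein of insulin-like growth factors, rose. It was at 681 and 544 FPKM in Zeb1-CKO, against 164 and 220.3 FPKM in control (log2 difference 1.67, SE 0.20, limma adjusted p = 0.0174). Unc5b, a netrin receptor gene, fell, with 5.44 and 5.66 FPKM in Zeb1-CKO against 10.8 and 13.1 FPKM in control (log2 difference -0.98, SE 0.16, limma adjusted p = 0.0372). The call of Igfbp3 ended without either Zeb1-CKO replicate and that of Unc5b with any single library left out, with adjusted p of up to 0.109 and 0.184. Of the 21 that did not pass, some are given here, picked after their values were seen. Ankrd37 had the lowest adjusted p among them, at 23.3 and 25.3 FPKM in Zeb1-CKO, against 14.5 and 13.7 FPKM in control (limma adjusted p = 0.0529). Rgcc went the other way, at 351 and 380.4 FPKM in Zeb1-CKO, against 674 and 518 FPKM in control (limma adjusted p = 0.11). Dll4, the Notch ligand of tip cells, was at 132.5 and 122 FPKM in Zeb1-CKO, against 96.8 and 120.4 FPKM in control (limma adjusted p = 0.502). Kdr, the main VEGF receptor gene, was at 103 and 95.4 FPKM in Zeb1-CKO, against 84.6 and 101 FPKM in control (limma adjusted p = 0.771). Angpt2, which encodes the Tie2 ligand angiopoietin-2, was at 45.8 and 35.8 FPKM in Zeb1-CKO, against 30.2 and 26.8 FPKM in control (limma adjusted p = 0.214, unadjusted p = 0.028), without overlap.

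**Figure D4:**
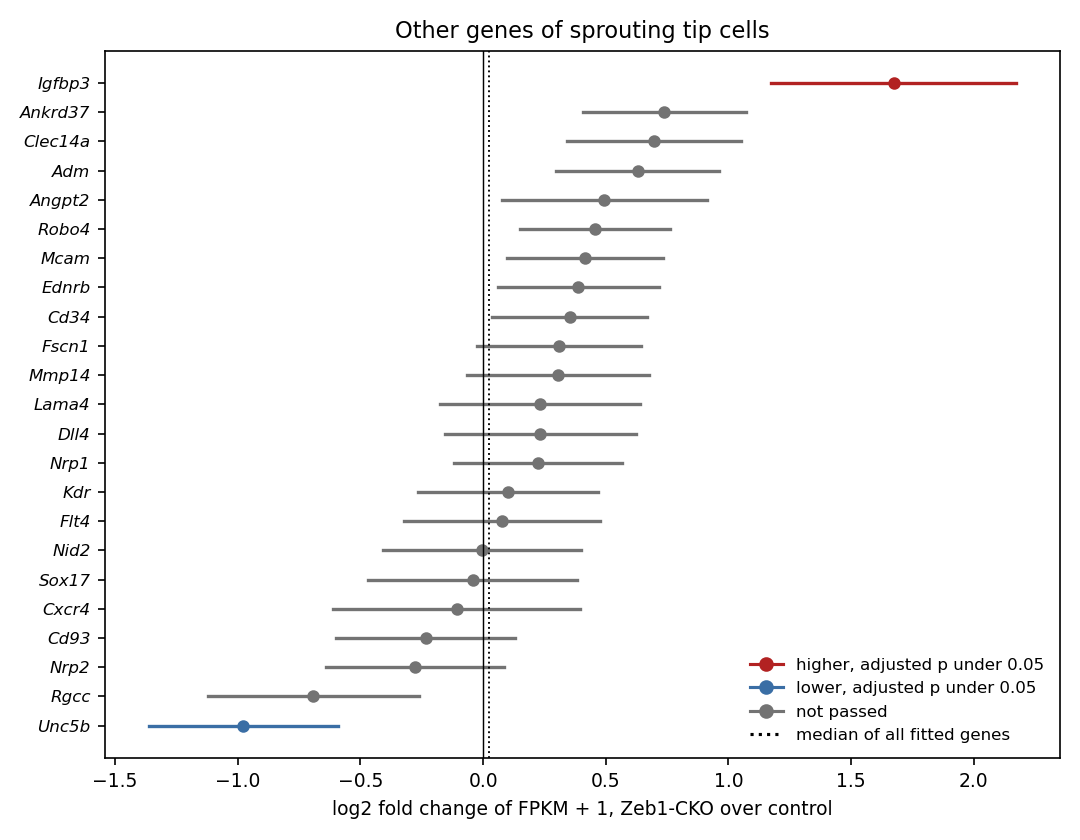
Difference between Zeb1-CKO and control on the log2(FPKM + 1) scale for 23 other genes associated with tip cells, sorted by size, with 95% intervals from limma; the dotted line is the median of all fitted genes at 0.02. Igfbp3 at 1.67 and Unc5b at -0.98 passed the threshold, and the other 21 did not.

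Of 16 genes of stalk and quiescent endothelium, all fitted, 0 passed limma's threshold, 4 had an unadjusted p under 0.05 (3 higher, 1 lower; 17.9% of all fitted genes), and the median log2 difference was 0.06. The 2 most abundant were Eng, which encodes a co-receptor for BMP ligands, and Id1, which BMP signalling is known to induce. Both Zeb1-CKO libraries held Eng at 202 FPKM, against 223 and 236 FPKM in control (limma adjusted p = 0.514). Id1 was at 165 and 181 FPKM in Zeb1-CKO, against 204 and 211 FPKM in control (limma adjusted p = 0.367). Of 12 genes of the VEGF axis, 1 rose and 11 did not pass, with a median of 0.07. At an unadjusted limma p under 0.05, 1 was higher and 0 lower. Of all fitted genes 17.9% had such a p, and 3.13% passed limma's threshold. The gene that rose was Pgf, encoding placental growth factor, at 6.11 and 7.97 FPKM in Zeb1-CKO against 2.27 and 2.16 FPKM in control (limma adjusted p = 0.0233; 0.0558 to 0.139 without each library in turn).

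Around the apelin receptor, 16 genes for processing, G proteins, arrestins and transcriptional effectors were listed. Of the 13 fitted, 0 rose, 1 fell and 12 did not pass, with 11 negative differences and a median of -0.09. At an unadjusted limma p under 0.05, 1 was higher and 2 lower. Of all fitted genes 17.9% had such a p, 3.13% passed limma's threshold and 52.8% had a positive difference. Klf2, a flow-responsive transcription factor gene, fell, with 77.1 and 79.1 FPKM in Zeb1-CKO against 143 and 146 FPKM in control (log2 difference -0.88, SE 0.12, limma adjusted p = 0.0255). Its call ended with any single library left out (adjusted p of 0.0747 to 0.140), while the difference stayed between -0.90 and -0.87.

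Of 16 listed relatives and partners of Kcne3, 15 were found in the table by these symbols and 5 reached a mean of 1 FPKM; 0 passed limma's threshold, with 3 higher and 2 lower at an unadjusted p under 0.05, against 17.9% of all fitted genes. The pore-forming partner Kcnq1 was at 24.2 and 22.0 FPKM in Zeb1-CKO, against 14.1 and 14.6 FPKM in control (limma adjusted p = 0.0699). The related subunit gene Kcne4 was at 24.2 and 21.9 FPKM in Zeb1-CKO, against 40.8 and 37.2 FPKM in control (limma adjusted p = 0.0555). Kcne3 thus stood above Kcne4 in both Zeb1-CKO libraries and below it in both controls. All 7 pericyte markers also had negative differences, and the part of pericyte RNA in the Kcne4 values was not tested. Kcnj8, the most abundant of the 5 and a pericyte marker as well, was at 100.0 and 108 FPKM in Zeb1-CKO, against 149 and 123 FPKM in control (limma adjusted p = 0.267).

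Of 16 genes of plasminogen activation and of the urokinase receptor's partners, 14 were fitted: 0 rose, 1 fell and 13 did not pass, with a median of -0.28. At an unadjusted limma p under 0.05, 2 were higher and 5 lower. Of all fitted genes 17.9% had such a p, and 3.13% passed limma's threshold. Serpine2, which encodes a secreted serine protease inhibitor, fell. It was at 54.7 and 55.2 FPKM in Zeb1-CKO, against 109 and 91.1 FPKM in control (limma adjusted p = 0.0439; 0.0605 to 0.190 without each library in turn). Plau, the ligand gene of the receptor encoded by Plaur, was at 7.63 and 3.40 FPKM in Zeb1-CKO, against 6.19 and 5.75 FPKM in control (limma adjusted p = 0.818). Smooth-muscle markers were lower beside Serpine2, in 4 of 4 fitted members of 5, at sums of 229 and 308 FPKM in Zeb1-CKO against 536 and 393 FPKM in control, and their part in its fall was not tested.

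Of 8 other genes of PDGF signalling, all fitted, 0 passed limma's threshold (3 higher and 1 lower at an unadjusted p under 0.05, against 17.9% of all fitted genes), with a median of -0.01. Pdgfrb, the receptor gene for PDGF-B, was at 63.5 and 71.7 FPKM in Zeb1-CKO, against 76.7 and 83.8 FPKM in control (limma adjusted p = 0.421). Pdgfra was at 37.8 and 37.6 FPKM in Zeb1-CKO, against 25.8 and 22.9 FPKM in control (limma adjusted p = 0.081). Which of the cells present gave the Pdgfra values was not tested. All 7 pericyte markers, Pdgfrb among them, had negative differences, with a median of -0.36 and 0 past limma's threshold (4 at an unadjusted p under 0.05, against 17.9% of all fitted genes).

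Of 17 actin regulators of filopodia and relatives of Cotl1, 2 rose and 15 did not pass, with a median of 0.07. At an unadjusted limma p under 0.05, 6 were higher and 0 lower. Of all fitted genes 17.9% had such a p, and 3.13% passed limma's threshold. Ezr, which encodes the membrane-actin linker ezrin, was at 49.7 and 50.4 FPKM in Zeb1-CKO, against 18.0 and 22.0 FPKM in control (log2 difference 1.29, SE 0.15, limma adjusted p = 0.0164). Dstn, which encodes the actin-depolymerizing protein destrin, was at 392 and 369 FPKM in Zeb1-CKO, against 177 and 153 FPKM in control (log2 difference 1.20, SE 0.14, limma adjusted p = 0.0169). Both calls ended without either Zeb1-CKO replicate, with adjusted p of up to 0.108 for Ezr and 0.110 for Dstn. Fscn1, the filopodial actin-bundling gene fascin, was at 136 and 125 FPKM in Zeb1-CKO, against 99.6 and 111 FPKM in control (limma adjusted p = 0.310).

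Genes with the most similar profiles were sought among 6618 protein-coding genes of at least 5 FPKM, as the Euclidean distance between log2(FPKM + 1) values centred on their mean over the 4 libraries. With 4 libraries such a distance describes little beyond the difference between the genotypes. Nearest to Esm1 were Clca2, Fam110c and Elmo3, at distances of 0.352, 0.446 and 0.495. Clca2 was at 12.5 and 11.3 FPKM in Zeb1-CKO, against 1.13 and 1.66 FPKM in control. Nearest to Apln were Ptp4a1, Cwc22 and Npnt, at 0.124, 0.184 and 0.192, and nearest to Kcne3 were Gchfr, Kcna5 and Rabl2, at 0.232, 0.236 and 0.255. Kcna5 was at 13.1 and 19.7 FPKM in Zeb1-CKO libraries 1 and 2 and 4.21 and 3.24 FPKM in control libraries 1 and 2. Like Gchfr and Rabl2, Kcna5 had the library order of Kcne3, which picking genes by this distance favours.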

How the data were processed

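RNA was sequenced from 4 libraries of 100 sorted retinal endothelial cells, amplified with SMART-Seq v4 and read in pairs of 150 bases, per the labels' protocols. The deposited values are FPKM per gene, made by the authors; no unit stands in the header, so it was inferred from the values and the tools. Per the submitters' processing notes these were Trimmomatic 0.36, HISAT2 2.1.0 and StringTie 1.3.3 with build mm10; their settings and the annotation used are not stated in those notes. FPKM divides by the library total, and no count test was run. No label says whether different animals gave the 2 libraries of a genotype. The p-values therefore reflect the spread of these samples alone, which may be technical.

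Genes averaging 1 FPKM or more, 13651 in number, entered a limma 3.58.1 fit (R 4.3.3) of log2(FPKM + 1) by genotype alone, with limma's trend option and Benjamini-Hochberg adjustment over all of them; calls have an adjusted p under 0.05. The script was tested on simulated data. Depth was taken as the tallest step among low values of FPKM times length in genes with 1 transcript. Of such values, 19.8% to 26.6% lay within 0.02 of a whole step. For a step fixed beforehand 4% would at random, whereas this step was picked from the same values. Amplified reads carry no molecular identifiers, so fragments overstate independent molecules. Spans and transcripts are from GENCODE M21, in which 53229 of the identifiers have the same version, and promoters from RefSeq. BLAST found 0 transcripts of other genes with at least 95% identity to a member over 200 bases.

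The members and gene lists were chosen with earlier results of these data known. In each list, up to 4 called genes or the 2 most abundant were named, with the 3 nearest profiles of each member that passed. Apela, Ankrd37, Rgcc, Dll4, Kdr, Angpt2, Kcnq1, Plau, Fscn1, Pf4, Aif1, Epcam, Cdh1 and Gm34821 were added after their values were seen. So were Cldn5, Rgs5, Itga2b, Ppbp, Hbb-bs and Hba-a1. Marker lists are described by sums and counts, so Tagln, which the rule takes, is given in the limits. Alternatives were other pseudocounts, filters, scalings, a fit without trend, another threshold, the replicate block and each library left out. Figures were drawn with matplotlib 3.10.9 (Python 3.11.15).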

Additional observations from a re-analysis of the deposited data

How the results depend on the processing

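The direction of all 8 members' differences was the same in every alternative run. Esm1 and Apln passed in all of them, with adjusted p of up to 0.0436 and 0.0468. The log2 difference of Kcne3 was 1.78 in the main fit, 1.87 with a pseudocount of 0.1 and 1.73 with library medians set equal. Its call ended without a filter on low values (limma adjusted p = 0.154) and with the replicate block (0.0612). In both of these fits the difference was still 1.78. Without 1 library it ranged from 1.49 to 2.06, and the adjusted p from 0.0151 to 0.130. Members called higher numbered 2 or 3 over the alternatives that kept all 4 libraries, while 70 to 553 of all genes tested were called higher.

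Without a filter, 70 genes were higher and 15 lower, with 0 of the 23 other tip-cell genes called in either direction by limma. With a mean of at least 5 FPKM, 169 of 7242 genes were higher, and 2 of the 23. With quantile normalization 2 of the 23 were higher, and without the trend 0 of the 23 were lower. With the replicate block, 155 genes were higher and 38 lower, with 0 and 0 of the 23. At an adjusted p under 0.1, 553 genes were higher and 306 lower, and 4 of the 23 were higher. Without each library in turn, 48 to 238 genes were higher and 15 to 64 lower, against 304 and 123 with all libraries, and 0 to 1 and 0 to 0 of the 23. The 2 replicate numbers are only shared labels, and nothing pairs the libraries by them. Chosen after seeing the correlation of same-numbered libraries, -0.118, a block with crossed numbers gave 306 higher and 149 lower. Fits without a library have fewer samples. The fit without a filter adjusts over more genes (38986), and its unadjusted limma p also differed, at 0.00106 for Kcne3 against 0.0004 in the main fit. The cause of the changes in calls was not tested for any setting. Tagln, of the smooth-muscle list, fell with an adjusted p of 0.0429, and 0.0807 to 0.194 without each library. Low values are least precise in control 2, which had the fewest fragments.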
